A study of Mus musculus with 17 samples.

Results

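The insulin and IGF signalling route was followed in sorted mouse lung cells through 10 genes: the forkhead transcription factors Foxo1, Foxo3 and Foxo4, the receptors Insr and Igf1r, the adaptors Irs1 and Irs2, the PI3-kinase regulatory subunit gene Pik3r1, and the kinases Akt1 and Akt2. They are 10 of 43430 Ensembl gene IDs in the deposited count tables, matched by symbol, and each was found in both tables. The set was built around Foxo3, which had the lowest p among the genes that were higher after ISRIB, so all values of the ISRIB comparison for these genes are a description and carry no test. That rule used no value of the bleomycin comparison, which was made on other libraries and was tested. The 10 genes were still chosen with earlier results of these data known.

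The 17 libraries were RNA-seq of alveolar epithelial type 2 (AT2) cells, the surfactant-making cells of the alveolus, sorted from C57BL/6J mice aged 2 months. Poly(A)-selected libraries came from uninjured mice 24 h after vehicle (4 libraries) or after ISRIB (4 libraries), a small molecule that keeps the translation factor eIF2B active when eIF2 is phosphorylated. Total RNA was sequenced from 4 naive libraries and from 5 libraries taken 14 days after bleomycin, which damages alveolar epithelium and leads to fibrosis. All 9 total-RNA libraries also carry the word saline in their titles and vehicle as their treatment label. The labels name no transgene or engineered allele, give no dose, and do not say whether a library came from 1 mouse or a pool, so p-values measure the spread between these libraries, which may be technical in part. Libraries are named by group and replicate number as labelled.

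Insulin and the IGFs bind the receptor kinases Insr and Igf1r, which phosphorylate the adaptors Irs1 and Irs2. These recruit PI3-kinase, whose lipid product brings AKT to the membrane, and AKT then phosphorylates FOXO proteins, which are held in the cytoplasm by 14-3-3 proteins. When the pathway is quiet, FOXO proteins are nuclear and drive genes of cell-cycle arrest, antioxidant defence, autophagy and, in several tissues, Insr and Irs2 themselves. Much of this control acts on protein phosphorylation and location, which RNA counts do not measure. AT2 cells are secretory cells and also the progenitors of alveolar type 1 (AT1) cells.

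Promoter sequence was taken from RefSeq (GRCm38.p6) as the 250 bases upstream of each gene's most upstream start. An entry was found for 8 of the 10 genes (Foxo1, Foxo3, Igf1r, Irs1, Irs2, Pik3r1, Akt1 and Akt2). Both strands were searched for the forkhead element GTAAACA, the insulin response core CAAAACA, the CEBP-ATF response element TGATGNAA bound by factors of the integrated stress response, and the GC box GGGCGG. These motifs do not overlap one another in the windows printed. The windows of 4 genes are shown, 5′ to 3′ on the gene's own strand: Foxo3, because it leads the ISRIB comparison, and Irs1, Irs2 and Akt1, because they hold the rarer motifs. Capitals mark GC boxes in Foxo3 (chr10:42276696-42276945, minus strand), the insulin response core in Irs1 (chr1:82291440-82291689, minus strand) and Irs2 (chr8:11008930-11009179, minus strand), and the forkhead element in Akt1 (chr12:112674885-112675134, minus strand).
Foxo3: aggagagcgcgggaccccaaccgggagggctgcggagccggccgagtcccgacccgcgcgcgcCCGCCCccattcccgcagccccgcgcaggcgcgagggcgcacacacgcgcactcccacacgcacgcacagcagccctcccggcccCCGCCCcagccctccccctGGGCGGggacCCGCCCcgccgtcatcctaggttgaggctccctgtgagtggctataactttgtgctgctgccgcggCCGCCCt
Irs1: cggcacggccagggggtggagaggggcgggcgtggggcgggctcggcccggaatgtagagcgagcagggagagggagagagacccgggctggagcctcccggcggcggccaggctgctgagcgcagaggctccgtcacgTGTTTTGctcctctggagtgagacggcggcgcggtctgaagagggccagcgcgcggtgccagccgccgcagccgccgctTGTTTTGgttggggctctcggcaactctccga
Irs2: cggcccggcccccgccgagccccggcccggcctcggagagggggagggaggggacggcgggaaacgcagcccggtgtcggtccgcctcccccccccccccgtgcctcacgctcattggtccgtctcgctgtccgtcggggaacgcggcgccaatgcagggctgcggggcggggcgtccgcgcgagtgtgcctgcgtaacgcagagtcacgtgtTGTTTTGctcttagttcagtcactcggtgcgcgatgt
Akt1: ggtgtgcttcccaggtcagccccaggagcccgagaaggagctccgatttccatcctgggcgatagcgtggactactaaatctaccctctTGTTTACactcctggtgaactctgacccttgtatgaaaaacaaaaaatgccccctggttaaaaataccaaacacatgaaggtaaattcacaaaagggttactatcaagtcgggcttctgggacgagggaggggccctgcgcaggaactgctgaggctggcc
Foxo3 had 5 GC boxes and a GC content of 76.4%, against a median of 52.4% over 32851 windows of the same length. This was not particular to Foxo3. GC content was 77.6% in Igf1r, 76.4% in Pik3r1 (4 GC boxes), 72.8% in Irs2 and 72.4% in Irs1. It was lower in Foxo1 (56%), Akt1 (52%) and Akt2 (48.8%). A GC box was present in 32.7% of the 32851 windows, and in each of the 8 genes except Akt1. The insulin response core, present in 5.56% of windows, occurred at 2 places in Irs1, 111 and 32 bases upstream of the start, and once in Irs2, 37 bases upstream. Distances are from the RefSeq start, which can differ from that of the GENCODE M21 gene. For Irs2 the window begins at 11008930 and the GENCODE gene (minus strand) starts at 11008458. For Igf1r the window ends at 67952256 and the GENCODE gene starts at 67952827. The forkhead element, in 3.17% of windows, occurred once, in Akt1, 161 bases upstream of the start. TGATGNAA, in 3.45% of windows, was in none of the 8. A match is a run of letters only and was not tested as a binding site.

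Depth was 10493574 to 15727139 counts per poly(A) library and 3295257 to 6333166 per total-RNA library. Genes with any count numbered 17108 to 19763 in naive libraries and 13940 to 17112 in bleomycin libraries, the fewest being in bleomycin 4 (13940). The part of this difference in the bleomycin changes was not tested. The biological coefficient of variation was 7.66% for poly(A) and 21.1% for total-RNA libraries, so a change of given size is resolved less well after bleomycin. All 10 genes passed the filter on low counts in both sets, with 30 to 4389 counts per poly(A) library and 17 to 1134 per total-RNA library, Igf1r being the least counted in both. The 10 AT2 markers were present in every group, summing to 215301 to 220290 CPM (counts scaled to a library size of 1000000) over the poly(A) libraries. In the total-RNA set they summed to 89730 to 93058 CPM in naive and 52070 to 102302 in bleomycin libraries, lowest in bleomycin 1 and bleomycin 2, with 2 of the 10 called higher and 1 lower. In bulk RNA, fewer cells of a type and less RNA per cell cannot be told apart.

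After ISRIB the FOXO factors Foxo3 and Foxo1 were higher than after vehicle in every library, with log2 fold changes of 0.67 and 0.37. The groups of the 8 other genes overlapped, with log2 fold changes from -0.41 (Igf1r) to 0.30 (Irs1). Of the 10 genes, 2 passed an adjusted p of 0.05 in edgeR's quasi-likelihood test and had groups that did not overlap, where 2.20% of the 12054 genes tested passed (1.10% higher) and 8.65% did not overlap. Since the genes were chosen through this comparison, nothing is read from that count. The 10 log2 fold changes had a median of 0.08, 8 positive (Akt2 by only 0.0051) and 2 negative, beside a median of -0.00014 over all genes tested, and a median size of 0.13 beside 0.10 for all genes.

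Foxo3, the FOXO factor with the highest level here, was at 155, 158, 194 and 205 CPM in vehicle 1 to 4 and at 280.2, 292, 279 and 284 CPM in ISRIB 1 to 4. The 4 ISRIB libraries lay above all vehicle libraries and lay closer together (284 ± 5.73 CPM, SD, n = 4) than the vehicle libraries (178 ± 25.2 CPM, SD, n = 4). The log2 fold change was 0.67 (SE 0.08), a level 59.2% higher, and ran from 0.61 to 0.74 when each library was left out. The gene lies on chromosome 10 at 42181841 to 42276755 (GENCODE M21, GRCm38, minus strand), and no other gene's exons overlap its own. The printed promoter window, taken upstream of the RefSeq start, begins at 42276696 and so overlaps the GENCODE gene. The GC box 7 bases upstream of the RefSeq start lies in that overlap.

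Foxo1, the factor best known from insulin control of liver glucose output, was at 43.0, 46.0, 50.3 and 52.6 CPM in vehicle 1 to 4 and at 55.2, 65.4, 64.6 and 63.7 CPM in ISRIB 1 to 4. The groups did not overlap, though ISRIB 1 lay close to vehicle 4. Its log2 fold change was 0.37 (SE 0.07), and 0.32 to 0.43 with each library left out, being smallest without vehicle 1 (0.32). As for the other genes of the set, this is a description with no test. Foxo1 exons overlap those of the opposite-strand model Gm20402 over 674 bases, and reads of the pair cannot be told apart if strand was not used in the counting. Foxo4, the X-linked member, was at 41.2, 42.7, 48.2 and 37.1 CPM in vehicle and 49.1, 43.8, 44.6 and 43.5 CPM in ISRIB libraries, with overlapping groups and a log2 fold change of 0.09 (SE 0.08).

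Insr, the insulin receptor, was at 121, 133, 144 and 135 CPM in vehicle 1 to 4 and at 135, 135, 150.3 and 131 CPM in ISRIB 1 to 4, a log2 fold change of 0.05 (SE 0.06). Igf1r, the IGF1 receptor, was counted far less, at 5.26, 7.51, 4.33 and 4.17 CPM in vehicle and 3.89, 4.08, 5.37 and 2.63 CPM in ISRIB libraries, a log2 fold change of -0.41 (SE 0.23). The groups overlapped for both receptors, and Igf1r's difference ran from -0.57 to -0.20 with each library left out, being smallest in size without vehicle 2, its highest library.

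Irs1, 1 of the adaptor genes, was at 28.1, 32.2, 26.03 and 33.0 CPM in vehicle 1 to 4 and at 31.7, 37.3, 37.1 and 40.8 CPM in ISRIB 1 to 4. ISRIB 1 lay within the vehicle range and the other 3 above it, for a log2 fold change of 0.30 (SE 0.09). Irs2 was at 74.2, 98.2, 89.2 and 60.5 CPM in vehicle and 72.2, 71.0, 76.5 and 66.7 CPM in ISRIB libraries, a log2 fold change of -0.17 (SE 0.10). Its ISRIB libraries all lay inside the wider vehicle range.

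Downstream of the adaptors the groups overlapped for all 3 genes. Pik3r1, which encodes the p85α subunit and its shorter forms, was at 70.1 to 76.1 CPM in vehicle and 74.3 to 84.7 CPM in ISRIB libraries (log2 fold change 0.09, SE 0.06). Akt1 was at 125 to 142 CPM in vehicle and 127 to 149 CPM in ISRIB libraries (0.07, SE 0.06). Akt2, the AKT form most tied to insulin-driven glucose uptake, was at 165 to 187 CPM and 164 to 178 CPM (0.0051, SE 0.06; -0.014 to 0.044 with each library left out).

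**Figure D1:**
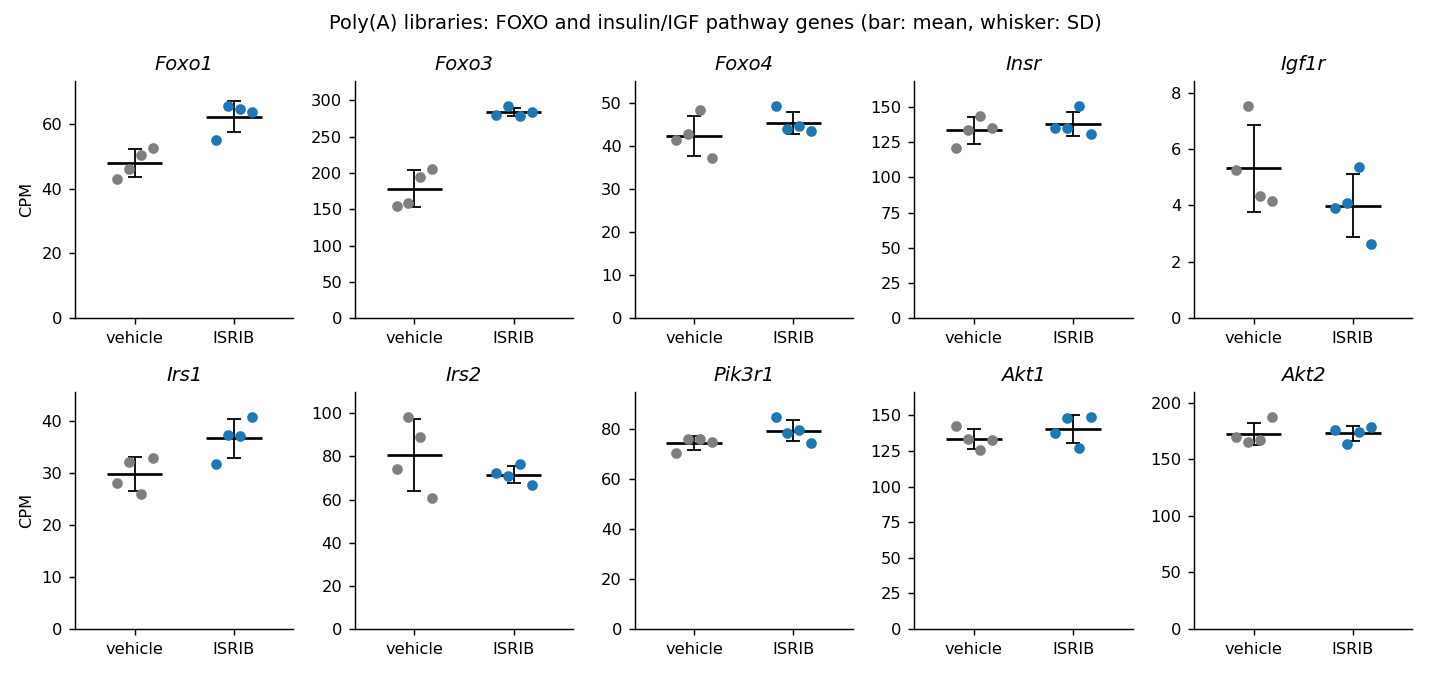
CPM (linear axis from 0) of each of the 10 genes in the 4 vehicle (grey) and 4 ISRIB (blue) poly(A) libraries; points are libraries, bars the mean and whiskers the SD. Foxo3 (155 to 205 against 279 to 292 CPM) and Foxo1 (43.0 to 52.6 against 55.2 to 65.4 CPM) have groups that do not overlap, and the other 8 genes overlap.

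By edgeR, 0 of the tested markers of other cell types passed after ISRIB, and 1 of 7 endothelial and 1 of 5 airway markers had an unadjusted p under 0.05. AT1 markers summed to 1995 to 2201 CPM in vehicle and 1975 to 2117 CPM in ISRIB libraries, and fibroblast markers to 18.3 to 27.6 CPM and 15.02 to 26.8 CPM. Airway epithelial markers summed to 3762 to 4255 CPM in vehicle and 2384 to 4147 CPM in ISRIB libraries. Of the 10 AT2 markers, Etv5, a transcription factor, was called lower.

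At day 14 after bleomycin the insulin receptor gene Insr fell and the kinase gene Akt1 rose, each with groups that did not overlap. These were 2 of the 10 genes, or 20%, against 20.5% of the 11223 genes tested that passed (11.2% higher, 9.31% lower) and 19.7% whose groups did not overlap, so the share is near the background. The 10 log2 fold changes had a median of -0.23, 6 negative and 4 positive, beside 0.0026 for all genes tested. The unadjusted edgeR p was under 0.05 for 7 of the 10. The share of all genes at that threshold is not given here, so nothing is read from this count.

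Insr was at 138, 142, 122 and 145 CPM in naive 1 to 4 and at 83.9, 81.6, 92.9, 73.6 and 90.6 CPM in bleomycin 1 to 5. Every bleomycin library lay below every naive library, and the level was 38.1% lower. The log2 fold change was -0.69 (SE 0.11, edgeR adjusted p 0.000254), and it stayed between -0.75 and -0.64 with each library left out. An exact two-sided permutation test over the 9 libraries gave p = 0.0159, the smallest that 4 against 5 allows.

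Igf1r, the other receptor, had its values on the other side. It was at 7.04, 4.70, 5.10 and 8.05 CPM in naive 1 to 4 and at 11.6, 18.2, 6.504, 21.3 and 6.65 CPM in bleomycin 1 to 5. Bleomycin 1, 2 and 4 lay above all naive libraries, while bleomycin 3 and 5 lay within the naive range. The log2 fold change of 1.03 (SE 0.37) did not pass (edgeR adjusted p 0.0561; exact permutation p = 0.0952). It passed without bleomycin 3 (1.22, adjusted p 0.0246), without bleomycin 5 (1.21, adjusted p 0.0258), with DESeq2 (1.05, adjusted p 0.0449) and with no filter on low counts (1.05, adjusted p 0.0135).

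Akt1, a kinase of survival and growth signalling, was at 77.8, 90.4, 76.3 and 84.6 CPM in naive 1 to 4 and at 119, 128, 115, 114 and 113 CPM in bleomycin 1 to 5. All bleomycin libraries lay above all naive ones, and the level was 43.3% higher. The log2 fold change was 0.52 (SE 0.11, edgeR adjusted p 0.00241; exact permutation p = 0.0159) and ran from 0.48 to 0.57 with each library left out. Akt2 was at 76.1, 82.5, 96.7 and 76.0 CPM in naive and 93.6, 90.8, 98.2, 101 and 90.0 CPM in bleomycin libraries. Its groups overlapped only through naive 3, and its log2 fold change of 0.19 (SE 0.11) did not pass (adjusted p 0.252; exact permutation p = 0.0635).

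Among the transcription factors, Foxo3 was at 195, 196, 145 and 204 CPM in naive 1 to 4 and at 160.3, 127, 147, 109 and 179.6 CPM in bleomycin 1 to 5. Naive 3 was far below the other naive libraries and inside the bleomycin range, and the 3 others lay above all bleomycin libraries. Its change of -0.35 (log2, SE 0.14) missed the threshold (edgeR adjusted p 0.0908; exact permutation p = 0.0952), but passed without naive 3 (-0.45, adjusted p 0.0489) and without bleomycin 5 (-0.44, adjusted p 0.0436).

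Foxo4 was at 34.9, 28.6, 33.0 and 33.4 CPM in naive 1 to 4 and at 16.9, 15.9, 25.2, 30.9 and 24.2 CPM in bleomycin 1 to 5. Only bleomycin 4 reached into the naive range. Its log2 fold change was -0.52 (SE 0.19, edgeR adjusted p 0.0630; exact permutation p = 0.0317), and it passed without bleomycin 4 (-0.64, adjusted p 0.0170) and with limma-voom (-0.56, adjusted p 0.0472). Foxo1 was at 49.3, 33.5, 35.4 and 37.0 CPM in naive and 44.2, 41.5, 33.6, 43.3 and 47.5 CPM in bleomycin libraries. Its groups overlapped throughout, with a change of 0.12 (log2, SE 0.15, adjusted p 0.643; exact permutation p = 0.397).

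The adaptors and the PI3-kinase subunit did not pass edgeR's test. Irs1 was at 101, 86.7, 103 and 115 CPM in naive 1 to 4 and at 81.2, 76.0, 80.5, 113 and 110.1 CPM in bleomycin 1 to 5, a change of -0.14 (log2, SE 0.14, adjusted p 0.522; exact permutation p = 0.365). Bleomycin 1, 2 and 3 lay below all naive libraries and bleomycin 4 and 5 among them. Irs2 was at 86.2, 83.8, 81.4 and 108 CPM in naive and 69.6, 75.3, 72.2, 82.9 and 62.6 CPM in bleomycin libraries (-0.31, SE 0.12, adjusted p 0.0845; exact permutation p = 0.0317). Pik3r1 was at 101, 119.9, 113 and 122 CPM in naive and 105, 71.1, 72.0, 104 and 94.5 CPM in bleomycin libraries (-0.36, SE 0.14, adjusted p 0.0675; exact permutation p = 0.0476). Irs2 passed without bleomycin 4 (-0.36, adjusted p 0.0457), and Pik3r1 without bleomycin 4 (-0.41, adjusted p 0.0388) or without bleomycin 1 (-0.42, adjusted p 0.0300). Irs1 exons overlap those of the opposite-strand model Gm9747 over 2822 bases, and Irs2 exons those of 9530052E02Rik over 162 bases.

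**Figure D2:**
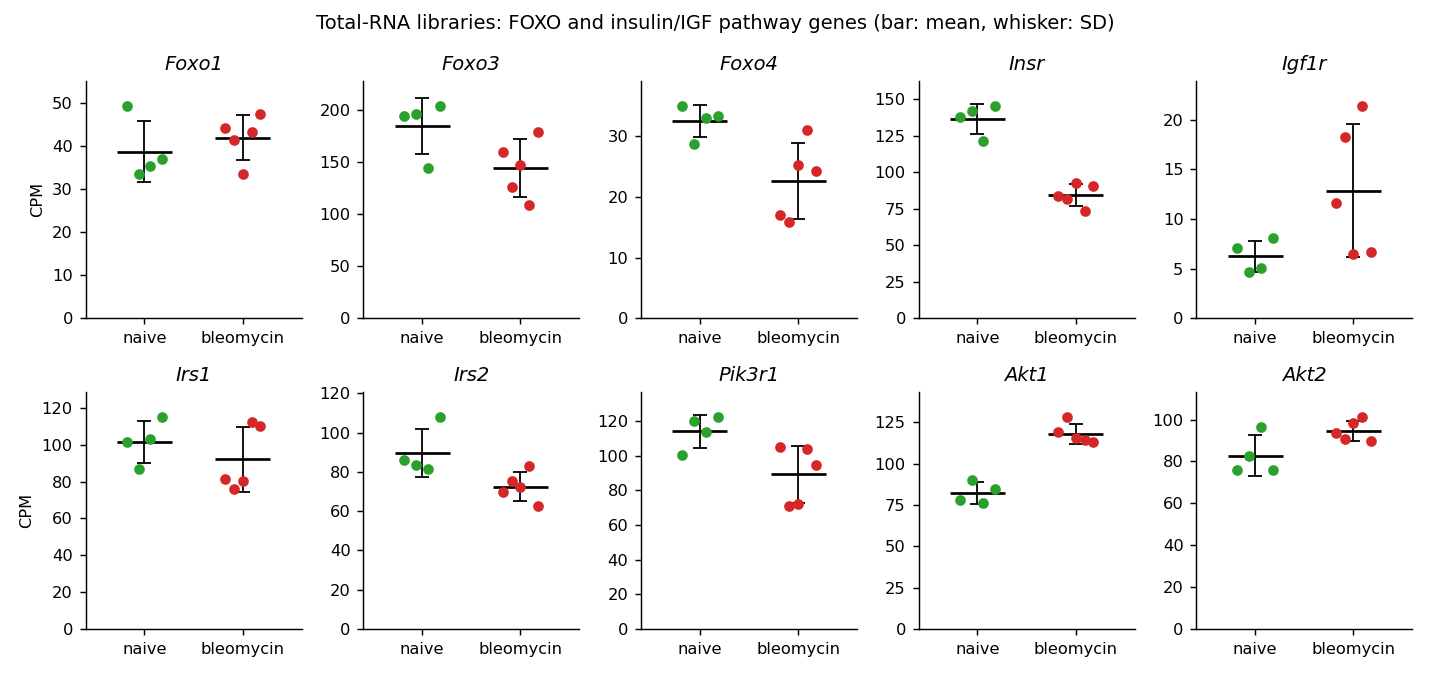
CPM (linear axis from 0) of each of the 10 genes in the 4 naive (green) and 5 bleomycin (red) total-RNA libraries; points are libraries, bars the mean and whiskers the SD. Insr (122 to 145 against 73.6 to 92.9 CPM) and Akt1 (76.3 to 90.4 against 113 to 128 CPM) have groups that do not overlap, and the other 8 genes overlap.

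Markers of other cell types differed between the bleomycin and naive libraries. AT1 markers summed to 1064 to 1276 CPM in naive and 1875 to 2235 CPM in bleomycin libraries, 6 of 8 called higher. Fibroblast markers summed to 5.07 to 13.05 CPM in naive and 19.6 to 131 CPM in bleomycin libraries, with Col1a1, Col1a2 and Col3a1 called higher of 4 tested, and with Lum at 0 in both groups and Tcf21 at 0 in the bleomycin libraries. Endothelial markers summed to 19.4 to 27.0 CPM and 19.8 to 82.1 CPM, 2 of 5 tested called higher (Cdh5 and Vwf). Airway markers summed to 449 to 882 CPM and 492 to 977 CPM, 2 of 6 tested called higher (Foxj1 and Ccdc39). Macrophage markers summed to 7.09 to 9.71 CPM and 5.09 to 10.03 CPM with none called, and Marco and C1qa were at 0 in both groups. Lymphocyte markers reached at most 1.82 CPM and neutrophil markers 1.88 CPM in the total-RNA set. The part of these cells in the changes of Insr and Akt1 was not tested.

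**Figure D3:**
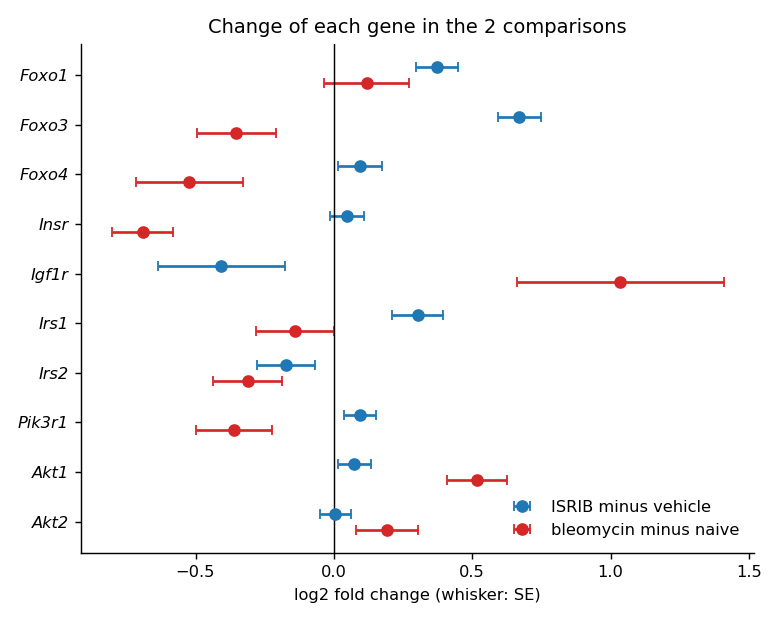
Log2 fold change of each of the 10 genes after ISRIB (blue, ISRIB minus vehicle) and after bleomycin (red, bleomycin minus naive), with whiskers of 1 SE on a linear axis. Foxo3 (0.67) and Foxo1 (0.37) stand to the right after ISRIB, while after bleomycin Insr (-0.69) stands to the left and Akt1 (0.52) to the right, with Igf1r at 1.03 and the widest whisker.

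The comparisons used different kits, mice and controls, and no model spanned both, so the difference between them was not tested. Foxo3 had a log2 fold change of 0.67 (SE 0.08) after ISRIB and -0.35 (SE 0.14) after bleomycin, and Igf1r -0.41 (SE 0.23) and 1.03 (SE 0.37). Irs2 was negative in both (-0.17 and -0.31), and Foxo1 (0.37 and 0.12) and Akt1 (0.07 and 0.52) were positive in both. Akt2 was at 0.0051 after ISRIB, turning to -0.0033 with upper-quartile factors, and at 0.19 after bleomycin.

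Levels can be ordered across genes only per length, here as CPM per kilobase of the gene's merged exons in GENCODE M21. In vehicle libraries Akt1 led at 32.6 ± 1.68 CPM per kilobase (SD, n = 4), followed by Akt2 (24.2 ± 1.42) and Foxo3 (23.5 ± 3.33), whose ranges overlapped. Irs2 (12.7 ± 2.63) and Foxo4 (12.1 ± 1.32) overlapped too. Below Foxo4 by mean came Insr (9.69 ± 0.688), Pik3r1 (7.37 ± 0.276), Foxo1 (5.54 ± 0.496), Irs1 (3.26 ± 0.364) and Igf1r (0.32 ± 0.092), each clear of the next. The wide range of Irs2 (9.58 to 15.5) also overlapped that of Insr (8.78 to 10.4). In ISRIB libraries Foxo3 was the highest of the 10, at 37.5 ± 0.757 CPM per kilobase, above Akt1 (34.3 ± 2.46) and Akt2 (24.3 ± 0.905) with no overlap. Foxo1, at 7.18 ± 0.549, then overlapped Pik3r1 at 7.86 ± 0.422, and Igf1r stayed lowest at 0.24 ± 0.067.

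In the total-RNA set, which was normalized separately, naive AT2 cells had Foxo3 (24.4 ± 3.57 CPM per kilobase, SD, n = 4) and Akt1 (20.1 ± 1.59) at the top with overlapping ranges. The 6 genes from Irs2 (14.2 ± 1.93) down to Foxo4 (9.32 ± 0.772), in the order Irs2, Akt2, Pik3r1, Irs1, Insr and Foxo4, each overlapped the next. Foxo1 (4.48 ± 0.824) and Igf1r (0.37 ± 0.095) lay clear below. In bleomycin libraries Akt1 (28.8 ± 1.49, n = 5) stood above Foxo3 (19.1 ± 3.65) and Akt2 (13.3 ± 0.677) with no overlap between these 3. Insr went from 9.95 ± 0.761 to 6.15 ± 0.557 CPM per kilobase and from rank 7 to rank 8, and Igf1r from 0.37 to 0.77 ± 0.401, still the lowest. Ordered by mean CPM without length, an order that also reflects gene length, Foxo3 was the highest in all 4 groups. Its range was clear of the next gene only in ISRIB libraries. In vehicle libraries it was at 155 to 205 CPM against 165 to 187 CPM for Akt2. In this order Insr moved from rank 2 in naive to rank 6 in bleomycin libraries.

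Ratios within a library compare related genes and do not depend on scaling. The 5 ratios were set up after the values had been seen and are a description, with no test. The level of Insr was 22.03 to 36.9 times that of Igf1r in naive libraries and 4.21 to 17.5 times in bleomycin libraries, per kilobase, so the groups did not overlap. Akt1 was at 1.37 to 1.94 times Akt2 in naive and 1.97 to 2.46 times in bleomycin libraries, also without overlap. Foxo3 was at 4.52 to 6.69 times Foxo1 in naive and 2.89 to 5.01 times in bleomycin libraries, which overlapped, as did the ratios of Foxo3 to Foxo4 and of Irs1 to Irs2. After ISRIB, Foxo3 to Foxo1 was 5.24 ± 0.39 (SD, n = 4) against 4.24 ± 0.247 in vehicle, and Foxo3 to Foxo4 was 2.89 ± 0.194 against 1.96 ± 0.398. Both FOXO ratios had ISRIB libraries entirely above vehicle libraries.

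**Figure D4:**
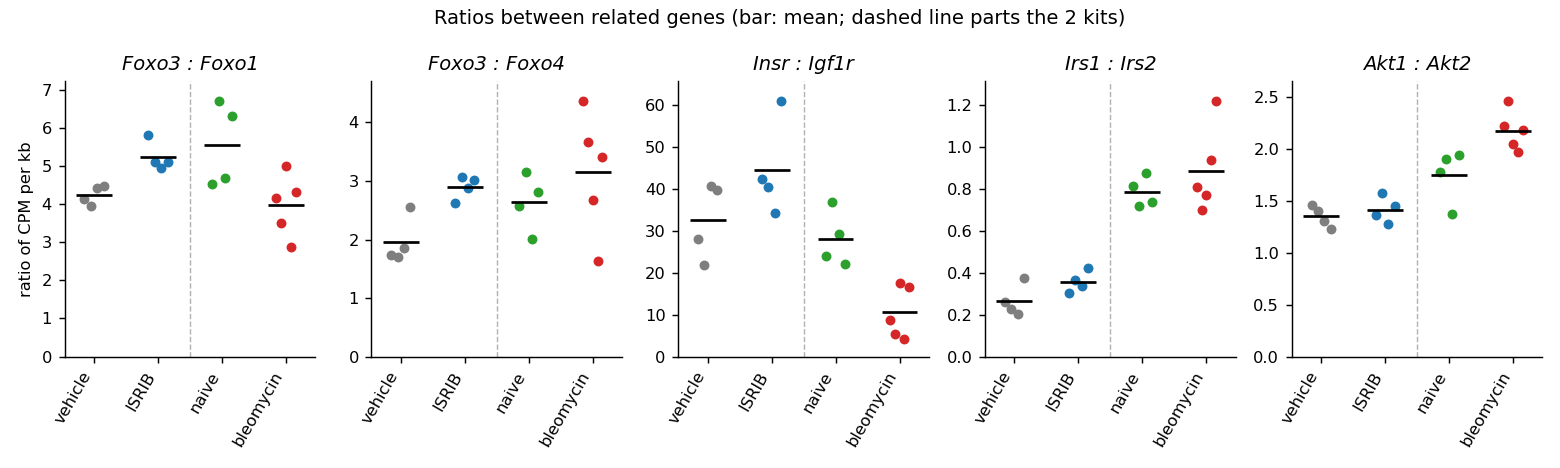
Ratio of CPM per kilobase between related genes in each library (linear axis from 0), with the mean of each group as a bar and a dashed line between the poly(A) and total-RNA sets. Insr to Igf1r falls from 22.03 to 36.9 in naive to 4.21 to 17.5 in bleomycin libraries, and Akt1 to Akt2 goes from 1.37 to 1.94 to 1.97 to 2.46.

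Across the 8 poly(A) libraries Foxo1 had the closest pattern to Foxo3 among the 9 other genes (Pearson r of log2 CPM 0.947), followed by Irs1 (0.714). Across the 9 total-RNA libraries Insr was closest (r 0.798), Foxo1 showed none (-0.024), and Akt2 (-0.835) and Igf1r (-0.713) ran the other way. Libraries of a set share a kit and fall into 2 groups, so these values are a description and contain the group difference. Of all genes tested with a mean of at least 5 CPM, the 5 most like Foxo3 in the poly(A) set were Lnx2 (r 0.982), Cttnbp2nl (0.978), Rbm5 (0.975), Hipk1 (0.974) and Irx1 (0.973), over 8 libraries. In the total-RNA set they were Qser1 (0.978), Lrif1 (0.961), Map4k3 (0.953), Ctdp1 (0.951) and Pde8a (0.944), over 9 libraries.

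The rest of the pathway was read in 6 lists of 155 genes, from ligands to FOXO targets, chosen with earlier results of these data known. After ISRIB, 6 of the 133 tested passed the threshold (4.51%, against 2.20% of all genes), 3 higher and 3 lower. After bleomycin, 35 of 125 passed (28%, against 20.5%), 20 higher and 15 lower, where 11.2% of all genes were called higher and 9.31% lower. The 20 include Ddit4l, Foxm1 and Plk1, which passed the filter on low counts only through the bleomycin libraries, where they were high. In the order of the lists below, the shares called after ISRIB were 0%, 11.8%, 0%, 4.17%, 3.45% and 5.41%. After bleomycin they were 75% (of only 4 genes tested), 17.6%, 16.7%, 21.7%, 32.1% and 34.3%. All adjusted p-values below are edgeR's, over all genes tested.

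Ligands, their carriers and the IGF2 clearance receptor were the first list. The gene for IGF1 itself was barely counted in AT2 cells, with 0 to 3 counts per poly(A) library and 0 to 8 per total-RNA library, and it was not tested. Igf2 and Igfbp2 were counted 43 to 80 and 18 to 48 times per poly(A) library and at most 12 and 16 times per total-RNA library, where neither passed the filter. After ISRIB 0 of the 8 tested passed by edgeR or DESeq2, and 0 had an unadjusted p under 0.05; the median log2 fold change was -0.08. With no filter on low counts 1 passed by edgeR, Igfbp6 (-0.24, adjusted p 0.0201, against 0.422 in the main fit). Its groups overlapped, at 72.4 to 77.4 CPM in vehicle libraries and 77.5, 49.7, 81.7 and 45.0 CPM in ISRIB 1 to 4. ISRIB 1 and 3 thus lay above all vehicle libraries.

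After bleomycin 3 of the 4 tested in that list passed. Igfbp5, an IGF-binding protein abundant in fibrotic tissue, was at 7.38, 14.3, 9.91 and 4.17 CPM in naive 1 to 4 and at 64.0, 150.7, 24.0, 40.2 and 32.6 CPM in bleomycin 1 to 5. It rose by 2.76 (SE 0.48, adjusted p 0.000454), all bleomycin libraries lying above all naive ones, and by 2.12 without bleomycin 2 (adjusted p 0.000152). Bleomycin 2 also had the highest fibroblast marker sum, 131 CPM, against 19.6 to 58.9 CPM in the other 4; the part of fibroblast RNA in this rise was not tested. Igfbp6, which binds IGF2 preferentially, was at 28.8 to 36.2 CPM in naive and 2.38 to 12.99 CPM in bleomycin libraries and fell by 1.94 (log2 fold change -1.94, SE 0.30, adjusted p 0.000174). Igf2r, which carries IGF2 to the lysosome, rose from 222 ± 12.96 CPM (SD, n = 4) to 310.0 ± 14.4 CPM (SD, n = 5), by 0.48 (SE 0.10, adjusted p 0.00287). Igfbp7 was at 64.0 and 68.3 CPM (0.10, adjusted p 0.658).

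Of the adaptors and inhibitors that act beside the receptors, 2 of 17 passed after ISRIB. Socs3, a cytokine-induced inhibitor that also blocks insulin receptor signalling, was at 98.7, 133, 90.6 and 86.7 CPM in vehicle 1 to 4 and at 61.5, 58.2, 62.4 and 58.5 CPM in ISRIB 1 to 4. It fell by 0.76 (log2 fold change -0.76, SE 0.10, adjusted p 0.00121), with no overlap. Cblb, a ubiquitin ligase that dampens receptor signalling, rose from 18.4 ± 1.74 to 24.4 ± 2.88 CPM (SD, n = 4 each; 0.40, SE 0.10, adjusted p 0.0430). That call was lost without any of vehicle 1 to 4, ISRIB 3 or ISRIB 4 (adjusted p 0.0680 to 0.132). It was lost as well with limma-voom (adjusted p 0.0565).

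In the same list after bleomycin, Socs3 and Gab2 rose and Grb14 fell, 3 of 17. Socs3 was at 56.4, 37.6, 50.4 and 68.0 CPM in naive and 78.6, 90.6, 82.1, 86.3 and 70.8 CPM in bleomycin libraries (0.63, SE 0.15, adjusted p 0.00645), so that it was lower after ISRIB and higher after bleomycin, each without overlap. Gab2, a docking protein that recruits PI3-kinase, went from 15.6 ± 4.04 to 31.6 ± 5.29 CPM (1.00, SE 0.20, adjusted p 0.00174). Grb14, an adaptor that inhibits the insulin receptor kinase, went from 333 ± 46.2 to 198 ± 25.3 CPM (-0.75, SE 0.12, adjusted p 0.000361). Insr and Grb14 were thus both lower. Grb10, its close relative, was at 29.9 and 42.4 CPM and did not pass (0.50, adjusted p 0.0580), but passed without naive 1 (0.61, adjusted p 0.0486) and with no filter (0.52, adjusted p 0.0313). Cblb did not pass either (-0.80, adjusted p 0.105), and passed without bleomycin 4 (-0.53, adjusted p 0.0142), its lowest library, and with no filter (-0.77, adjusted p 0.00136).

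Among PI3-kinase subunits, lipid phosphatases and AKT-level kinases, 0 of 18 passed after ISRIB by edgeR or DESeq2, and 2 had an unadjusted p under 0.05. Pdpk1, which activates AKT, was at 93.6 and 103 CPM (0.13, adjusted p 0.244), and the catalytic subunit Pik3ca at 172 and 182 CPM (0.08, adjusted p 0.521). After bleomycin 3 of 18 passed and all were lower; without bleomycin 1, 2 more passed and were higher, the kinase gene Sgk1 (1.30, adjusted p 0.0498, against 1.20 and 0.0734 with all libraries) and the pseudokinase gene Trib2 (1.25, adjusted p 0.0425, against 1.06 and 0.121). Inpp4a and Inpp4b, phosphatases that act on a lipid of the PI3-kinase pathway, went from 86.2 ± 5.90 to 38.4 ± 9.62 CPM (-1.16, SE 0.16, adjusted p 4.86e-05) and from 141 ± 14.1 to 75.5 ± 19.0 CPM (-0.90, SE 0.17, adjusted p 0.000829). Sgk3, a kinase related to AKT, went from 7.26 to 2.66 CPM (-1.47, SE 0.44, adjusted p 0.0213), a call lost without naive 1, 2 or 4 (adjusted p 0.0541 to 0.0853). Pdpk1 (-0.22, adjusted p 0.240) and Pik3ca (-0.19, adjusted p 0.324) did not pass.

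In the mTOR list, 1 of 24 passed after ISRIB: Castor2, of the CASTOR family of arginine sensors for mTOR complex 1, went from 30.1 ± 1.52 to 23.2 ± 1.41 CPM (-0.38, SE 0.08, adjusted p 0.0155). After bleomycin it was higher (14.97 ± 2.51 to 24.9 ± 6.46 CPM, 0.73, SE 0.22, adjusted p 0.0230), a call lost without naive 1, 2 or 3 (adjusted p 0.0530 to 0.0910). Of 23 tested after bleomycin, 3 were higher and 2 lower. Deptor, an inhibitory partner of mTOR, was at 153.6, 157, 125.8 and 155 CPM in naive 1 to 4 and at 58.2, 57.9, 66.7, 65.0 and 79.8 CPM in bleomycin 1 to 5 (-1.17, SE 0.12, adjusted p 3.37e-06). Sesn2, a stress-induced inhibitor of mTOR complex 1, rose from 19.9 ± 3.48 to 36.2 ± 6.33 CPM (0.85, SE 0.18, adjusted p 0.00246). Ddit4l, an mTOR inhibitor related to REDD1, was called higher at 2.31 and 6.86 CPM (1.56, adjusted p 0.0339), and Rps6kb1, the S6 kinase gene, lower at 63.4 and 48.4 CPM (-0.39, adjusted p 0.0419). Ddit4l had 5 to 15 counts in naive libraries and passed the filter on low counts only through the bleomycin libraries. It lost its call without naive 1, 2 or 4 or bleomycin 2 or 4 (adjusted p 0.0603 to 0.115) and with limma-voom (0.116). Rps6kb1 lost its call without any naive library or bleomycin 2 or 5 (adjusted p 0.0618 to 0.111), and with DESeq2 (0.0554). Mtor (-0.10) and Tsc1 (-0.29) did not pass after bleomycin, nor after ISRIB (-0.12 and -0.20).

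FOXO modifiers and the 14-3-3 proteins that bind phosphorylated FOXO formed the fifth list. After ISRIB 1 of 29 passed: Kat2b, an acetyltransferase, went from 72.5 ± 3.76 to 85.8 ± 4.36 CPM (0.24, SE 0.06, adjusted p 0.0387), a call lost without vehicle 1, 2 or 3 or ISRIB 1, 3 or 4 (adjusted p 0.0538 to 0.141). After bleomycin 6 of 28 were higher, and all 6 were among the list's 7 genes for 14-3-3 proteins; the other, Ywhaq, did not pass (-0.15, SE 0.17, adjusted p 0.592). Sfn, the epithelial 14-3-3σ, went from 33.6 ± 5.37 to 69.6 ± 22.1 CPM (1.04, SE 0.21, adjusted p 0.00174) and Ywhah, 14-3-3η, from 49.4 ± 6.77 to 80.7 ± 8.53 CPM (0.71, SE 0.13, adjusted p 0.000846). Ywhae (0.49, adjusted p 0.00527), Ywhaz (0.48, adjusted p 0.0108), Ywhab (0.44, adjusted p 0.0160) and Ywhag (0.44, adjusted p 0.0251) followed. Without naive 4, Ywhaz (adjusted p 0.0524), Ywhab (0.0811) and Ywhag lost their calls, leaving 3 of the 6; Ywhag lost it without naive 1 or 2 as well (adjusted p 0.0696 to 0.0830 over the 3).

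In that list 3 genes were lower after bleomycin. Prkaa2, a catalytic subunit of AMPK, went from 41.9 ± 2.04 to 24.4 ± 6.78 CPM (-0.77, SE 0.19, adjusted p 0.00649). Sirt1, a deacetylase of FOXO proteins, went from 35.0 ± 1.95 to 23.8 ± 5.96 CPM (-0.54, SE 0.18, adjusted p 0.0419) and Mapk9, a JNK kinase, from 38.6 ± 2.97 to 28.1 ± 4.88 CPM (-0.46, SE 0.16, adjusted p 0.0468). Sirt1's call was lost without any naive library or bleomycin 2, 4 or 5 (adjusted p 0.0524 to 0.105), and Mapk9's without any naive library or bleomycin 1, 2 or 3 (adjusted p 0.0723 to 0.145). With no filter neither passed (adjusted p 0.0534 and 0.106). Foxo6, the fourth FOXO gene, was at 5.97 and 5.59 CPM in vehicle and ISRIB libraries and had at most 15 counts in a total-RNA library.

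Of the reported FOXO targets, 2 of 37 passed after ISRIB, 1 in each direction. Fbxo32, the ubiquitin ligase atrogin-1, was at 16.7, 21.9, 23.1 and 17.3 CPM in vehicle 1 to 4 and at 15.2, 12.2, 13.7 and 11.1 CPM in ISRIB 1 to 4 (-0.60, SE 0.12, adjusted p 0.0181). Txnip, an inhibitor of thioredoxin and of glucose uptake, went from 296 ± 22.7 to 385 ± 63.5 CPM (0.38, SE 0.09, adjusted p 0.0373), with overlapping groups. Fbxo32's call was lost without vehicle 2, vehicle 3 or ISRIB 4 (adjusted p 0.0542 to 0.0676), and Txnip's without vehicle 1, 2 or 3 or ISRIB 2 or 4 (adjusted p 0.0863 to 0.126). The median log2 fold change of the 37 was 0.01, beside -0.00014 over all genes. Cdkn1a (0.09), Sod2 (0.12), Cat (0.11), Bcl2l11 (-0.06) and Ccng2 (-0.23) did not pass.

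After bleomycin 12 of the 35 targets tested passed (34.3%, against 20.5% of all genes), 7 higher and 5 lower, with a median of -0.05. Among the 7 are Foxm1 (4 to 15 counts in naive libraries) and Plk1 (0 to 6 counts). Both passed the filter on low counts only through the bleomycin libraries, so they could be tested only because they were high there. Nothing is therefore read from the share of 34.3%. The list was not divided by whether FOXO raises or lowers a gene. In either comparison, the split by direction and the median are therefore no measure of FOXO activity. The split depended on single libraries: 4 were higher without naive 2, bleomycin 3 or bleomycin 5, and 8 were lower without bleomycin 3, where Bcl6 (-0.53, adjusted p 0.0450), Bnip3 (-0.92, adjusted p 0.00988) and Cdkn1b (-0.49, adjusted p 0.0355) passed as well. Cdkn1a, the cell-cycle inhibitor p21, was at 17.1, 18.2, 12.9 and 18.8 CPM in naive 1 to 4 and at 107, 110.4, 71.5, 57.9 and 62.9 CPM in bleomycin 1 to 5 (2.29, SE 0.21, adjusted p 9.95e-07). Ccnd1, Foxm1 and Plk1 rose as well. Ccnd1, cyclin D1, went from 147 ± 17.4 to 362 ± 63.2 CPM (1.30, SE 0.14, adjusted p 3.56e-06), Foxm1, a proliferation factor that FOXO3 is reported to repress, from 2.58 ± 1.70 to 14.2 ± 6.78 CPM (2.51, SE 0.44, adjusted p 0.00057), and the mitotic kinase Plk1 from 0.95 to 3.997 CPM (2.18, SE 0.70, adjusted p 0.0316). Plk1 had at most 34 counts in a library and was tested in only 5 of the 9 fits with 1 library left out. Among those 5 fits it lost its call without naive 2, 3 or 4 (adjusted p 0.0713 to 0.111). Sod2, mitochondrial superoxide dismutase, rose by 0.52 (SE 0.12, adjusted p 0.00375) and Txnip by 0.61 (SE 0.19, adjusted p 0.0327). Txnip's call was lost without naive 1, 2 or 4 or bleomycin 3 or 5 (adjusted p 0.0562 to 0.120).

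The 5 targets that fell after bleomycin were Bcl2l11, Cited2, Cat, Ccng2 and Rbl2. Bcl2l11, the death gene BIM, went from 94.0 ± 18.6 to 36.4 ± 10.7 CPM (-1.37, SE 0.20, adjusted p 0.000115). Cited2, a transcriptional co-regulator, went from 242 ± 57.1 to 128 ± 15.01 CPM (-0.92, SE 0.15, adjusted p 0.00022), and Cat, catalase, from 647 ± 70.9 to 368 ± 69.5 CPM (-0.82, SE 0.14, adjusted p 0.00046). Ccng2, cyclin G2, went from 23.2 ± 3.07 to 13.1 ± 1.29 CPM (-0.82, SE 0.18, adjusted p 0.00428) and Rbl2, the p130 pocket protein of resting cells, from 74.7 ± 4.61 to 46.8 ± 14.3 CPM (-0.66, SE 0.18, adjusted p 0.0134). Rbl2's call was lost without naive 4 (adjusted p 0.0502). Sod2 and Cat, both antioxidant targets, went in opposite directions, as did Cdkn1a and Ccng2, both linked to arrest.

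Exons of Bcl6, Bnip3, Ccnd1, Cdkn1a, Deptor, Fbxo32, Igf2, Igfbp7, Plk1, Rbl2, Rps6kb1, Sirt1, Txnip and Ywhaq overlap opposite-strand models. Those of Foxm1 (Gm44596 and Tex52) and of Igf2 (Gm49394) overlap models on the same strand. The counts of all these genes are uncertain to that extent. The AT1 and fibroblast marker sums given above were higher in every bleomycin than in every naive library, while the endothelial and airway sums overlapped; their part in the bleomycin changes of these lists was not tested.

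**Figure D5:**
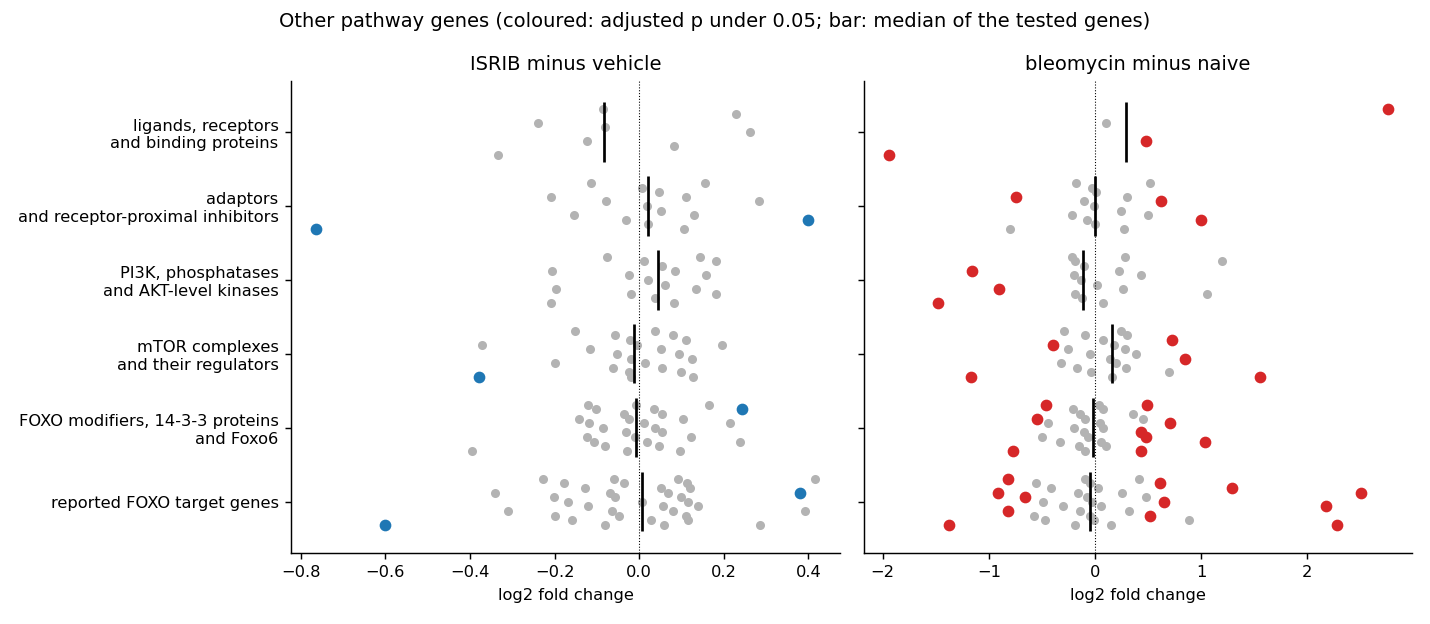
Log2 fold change of every tested gene in the 6 lists, after ISRIB (left) and after bleomycin (right), on linear axes of different range; coloured points passed an adjusted p of 0.05 and bars are list medians. Coloured points are few after ISRIB (6 of 133) and lie on either side of 0 in 5 of the 6 lists after bleomycin (35 of 125), the exception being the PI3-kinase list, where all 3 lie below 0.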

How the data were processed

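The authors deposited unnormalized read counts per Ensembl gene ID, in 1 table for each kit; the unit was read from the whole numbers and differing sums. Per the labels' protocols, poly(A) libraries were made from 3 ng of total RNA (NEBNext Ultra) and total-RNA libraries from 0.35 ng (SMARTer Stranded Pico v2). The submitters' processing notes name bcl2fastq 2.19.1, FastQC, Trimmomatic 0.36, STAR 2.6.0, HTSeq 0.11.2 and mm10; the strand setting was not given in the sources used here, nor the annotation. Symbols and positions come from GENCODE M21 (GRCm38) by gene ID, and 42546 of 43430 IDs had a symbol.

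Each comparison was fitted within its kit, over its own libraries, in edgeR 4.0.16 (R 4.3.3): filterByExpr (minimum count 10, minimum total count 15), TMM factors, quasi-likelihood F test, two-sided, with Benjamini-Hochberg adjustment over all genes tested and a threshold of 0.05. CPM are counts scaled to a TMM-adjusted library size of 1000000 (marker sums to the unadjusted size); log2 fold changes are edgeR's, with SE taken from the F statistic. For the 10 genes after bleomycin an exact permutation test on log2 CPM (prior 0.5) was added. Alternatives were no filter, DESeq2 1.42.0, limma-voom (limma 3.58.1), RLE and upper-quartile factors, the 20 most abundant genes left out, the replicate number as a block, and each library left out. The fit was also run on simulated counts, and the outcome of that run is not given here.

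The 10 genes, the 6 lists and the marker lists were chosen with earlier results of these data known. From each list, every called gene is named, up to 6 per direction by lowest p (Sgk1, Trib2, Ywhaq, Bcl6, Bnip3 and Cdkn1b were added after their values were seen), plus a panel named for its role (Igf1, Igf2, Igf2r, Igfbp2, Igfbp6, Igfbp7, Pdpk1, Pik3ca, Foxo6, Grb10, Mtor and Tsc1). Genes most like Foxo3 are the 5 with the highest Pearson correlation of log2 CPM among genes of at least 5 CPM, pseudogenes and unnamed models passed over. Prmt1 of the FOXO modifier list is not analysed here, and some genes that belong to these lists are not reported here.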

Additional observations from a re-analysis of the deposited data

Results flagged for a closer look

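In groups of 4 or 5 libraries, the highest or lowest value was set against the rest by Dixon's ratio (the gap to the nearest other value over the whole range). The ratio was above its 95% critical value in 15 of 218 gene-by-group sets (6.88%), where chance gives about 1 in 20, and in 2 of the 40 sets of the 10 pathway genes.

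Foxo1 was low in ISRIB 1, at 55.2 CPM against 63.7 to 65.4 CPM in the other ISRIB libraries. Foxo3 was low in naive 3, at 145 CPM against 195 to 204 CPM. Without naive 3 the log2 fold change of Foxo3 after bleomycin was -0.45 (edgeR adjusted p 0.0489) in place of -0.35 (0.0908).

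Naive 3 was also apart for Deptor (low, 125.8 CPM) and Ddit4l (high, 4.50 CPM). Vehicle 3 was apart for Inpp4b (low, 65.6 CPM), Mapk9 (low, 48.0 CPM) and Tsc1 (high, 30.8 CPM). Cblb was low in vehicle 4 (15.8 CPM) and in bleomycin 4 (2.17 CPM, the next lowest being 21.4 CPM). Castor2 was low in ISRIB 4 (21.1 CPM) and Grb10 high in ISRIB 2 (38.04 CPM). Among bleomycin libraries, Gab2 was high in bleomycin 1 (40.7 CPM), Ywhab in bleomycin 2 (153.8 CPM) and Ywhag in bleomycin 4 (149 CPM), and Igf2r was low in bleomycin 3 (285 CPM).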

How the results depend on the processing

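The number of genes called after ISRIB was 265, 648 with no filter on low counts, 397 with DESeq2, and 86 to 269 with each library left out (86 without vehicle 1, 102 without vehicle 2, 159 without ISRIB 4). After bleomycin it was 2304, and 1554 to 2584 with each library left out. Of the 10 genes, 2 were called after bleomycin, 3 with DESeq2, limma-voom or no filter, and 2 to 5 with each library left out (5 without bleomycin 4, 4 without bleomycin 5); Insr and Akt1 were called in each of these fits. With the replicate block 5 were called, Foxo3 (-0.44, adjusted p 0.0439), Foxo4 (-0.59, 0.0479) and Igf1r (1.14, 0.0219) being added, and 277 genes after ISRIB and 2187 after bleomycin were called in all; 8 FOXO targets were then lower after bleomycin in place of 5. Same-numbered libraries did not deviate together (r -0.109 to 0.085 in the poly(A) set and -0.039 to 0.047 in the total-RNA set), so the numbers were not taken to pair mice, and bleomycin 5 has no partner. None of the 10 genes changed the direction of a called change under any setting. In limma-voom Foxm1 was at 0.12 after ISRIB. With each library left out, the ISRIB log2 fold changes of 12 uncalled genes had either sign: Akt2 (-0.014 to 0.044), Igfbp5 (-0.20 to 0.11), Gab2 (-0.022 to 0.077), Inpp4a (-0.020 to 0.13), Ddit4l (-0.15 to 0.14), Rps6kb1 (-0.022 to 0.12), Sfn (-0.12 to 0.037), Ywhaz (-0.031 to 0.020), Prkaa2 (-0.011 to 0.11), Foxo6 (-0.22 to 0.012), Foxm1 (-0.41 to 0.43) and Plk1 (-0.66 to 0.16). After bleomycin the same held for Kat2b (-0.11 to 0.029). The causes were not tested. Depth limits the precision of genes with few counts in the total-RNA set, such as Igf1r (17 to 101 counts per library).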
